A study of Mus musculus with 9 samples.

Results

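Glycosyltransferase genes of 5 families were taken by symbol from the gene assigned to each CpG in the deposited table: sialyltransferases (St3gal, St6gal, St6galnac and St8sia genes), galactosyltransferases (B3galt and B4galt), N-acetylglucosaminyltransferases (Mgat), fucosyltransferases (Fut) and polypeptide GalNAc transferases (Galnt). Of 356320 CpGs covered by 10 or more reads in all 9 libraries, 1540 were assigned to 66 of these genes, out of 17777 genes with such a CpG. The sialyltransferases held 608 CpGs in 20 genes, the galactosyltransferases 180 in 11, the Mgat genes 180 in 9, the fucosyltransferases 155 in 8 and the Galnt genes 417 in 18. Before the coverage minimum the table held 4059 CpGs of 69 such genes, and 37.9% of those CpGs were kept, against 39.1% of all CpGs. No CpG of B3galt2, Fut11 or Mgat4b was kept. Fut4-ps1, which is named as a pseudogene, matched the symbol rule and was kept with the fucosyltransferases.

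Glycosyltransferases build the sugar chains of glycoproteins and glycolipids in the secretory pathway, each adding a given sugar in a given linkage. The Mgat enzymes start the branches of N-linked glycans, galactosyltransferases lengthen them, and sialyltransferases and fucosyltransferases cap or decorate them. Galnt enzymes place the initial GalNAc of O-linked glycans on serine and threonine. In the B cell lineage these enzymes shape the glycans of secreted antibody, whose fucose, galactose and sialic acid content affects binding to Fc receptors, and make the sialylated ligands of the inhibitory receptor CD22. Methylation of cytosine in CpG pairs is a DNA mark that is typically low at CpG-dense gene starts and high elsewhere. It is not a measure of expression, and no RNA was used here.

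Spleen cells of 10-week-old female C57Bl/6J mice were sorted into 3 groups, with 3 libraries in each. Untreated control mice gave the naive B cells (B220+ CD43-). Plasmablasts (CD138+ with intermediate B220) and plasma cells (CD138+ with low B220) came from mice given the bacterial lipopolysaccharide LPS and were taken on day 3. The assay, reduced representation bisulfite sequencing, reads CpGs near sites of the enzyme MspI, so each gene is seen only at some of its CpGs. The same naive B libraries served both comparisons with the LPS-induced cells, so those comparisons are not independent.

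Most gene starts of these families carried little methylation, and the promoters of B4galt5 (which makes lactosylceramide, the base of most gangliosides) and B4galt2 (an N-glycan galactosyltransferase) show such a stretch in letters. Both hold the 250 bases before the RefSeq start in build GRCm38.p6, on the minus strand, at chr2:167349179-167349428 for B4galt5 and chr4:117883477-117883726 for B4galt2. Capitals mark the CpGs tested here, placed by their spacing from the start site and not by coordinates, since the deposited positions are in build mm9. Of 48 member genes with a RefSeq promoter, 9 had at least 5 tested CpGs that could be placed in this way.
B4galt5: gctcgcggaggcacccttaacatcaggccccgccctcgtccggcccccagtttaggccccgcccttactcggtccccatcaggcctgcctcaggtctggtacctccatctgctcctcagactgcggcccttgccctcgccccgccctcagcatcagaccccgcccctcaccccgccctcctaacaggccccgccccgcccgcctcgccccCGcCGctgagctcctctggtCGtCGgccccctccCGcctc
B4galt2: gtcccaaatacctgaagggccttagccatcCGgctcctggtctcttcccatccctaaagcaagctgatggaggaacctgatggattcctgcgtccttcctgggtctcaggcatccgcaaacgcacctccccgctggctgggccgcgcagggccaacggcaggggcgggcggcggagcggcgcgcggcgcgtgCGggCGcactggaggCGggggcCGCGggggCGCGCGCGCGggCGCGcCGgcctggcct
The 5 tested CpGs of the B4galt5 stretch averaged 2.39% in naive B cells, with 5.28% in plasmablasts and 0.59% in plasma cells. In the B4galt2 stretch the 13 capital CpGs near its 3′ end lay at 11.1% or less in naive B cells, while the remaining capital CpG, 225 bp before the start used in the deposited table, stood at 52.0% there, 68.2% in plasmablasts and 30.8% in plasma cells and was not called. The MspI site CCGG, which reads the same on both strands, occurs 1 time in the B4galt5 stretch and 2 times in the B4galt2 stretch. It occurs in 47.1% of the 32851 RefSeq promoter stretches of this length.

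Read counts over all CpGs ran from 16037172 to 29948088 per library, and the median coverage of the members' CpGs from 24 to 37 reads. At the 78187 CpGs that averaged under 5%, where little methylation is present to be read, the level was 0.749% in naive B 1, 2.63% and 3.13% in naive B 3 and 2, and 2.08% to 6.11% in plasmablasts. In plasma cells it was 1.07% to 1.16%. This background moves with the groups, and its part in the small differences at low levels was not tested. Of the marker genes with a tested locus, 3 of 4 of B cells, 4 of 4 of plasma cells, 3 of 3 of T cells, 1 of 2 of NK cells, 1 of 1 of myeloid cells and 2 of 2 of erythroid cells were lower in plasma cells than in naive B cells, where 67.8% of all genes were. These are methylation values and do not settle the purity of the sorts.

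Every family was less methylated in plasmablasts than in naive B cells, and least in plasma cells. The mean over all member CpGs was 65.4%, 67.6% and 67.4% in naive B 1 to 3, against 57.1%, 59.2% and 57.5% in plasmablasts. Plasma cells 1 to 3 stood at 55.1%, 52.4% and 51.8%. No library of one group overlapped another group. The difference from naive B cells was -8.86 points in plasmablasts and -13.7 points in plasma cells, beside -7.62 and -12.6 points over all tested CpGs. The members began higher, at 66.8% ± 1.20 (SD, n = 3) against 62.4% ± 1.23 for all tested CpGs.

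The galactosyltransferases had the lowest level of the 5 families, at 51.1% ± 1.86 in naive B cells, with 44.0% ± 1.37 in plasmablasts, then 38.4% ± 1.24 in plasma cells (mean ± SD, n = 3). Of their CpGs 42.8% lay within 1 kb of a start site, against 17.8% to 29.0% in the other families. Sialyltransferases stood at 66.5% ± 1.02, 57.6% ± 1.3 and 53.4% ± 1.65. Mgat genes went from 70.4% ± 0.957 to 60.5% ± 0.289 and 54.8% ± 1.89, and Galnt genes from 70.0% ± 1.31 to 60.8% ± 1.23 and 55.7% ± 2.05. The fucosyltransferases were the highest, at 73.8% ± 1.43, 64.5% ± 0.511 and 59.9% ± 1.73. The differences between plasma cells and naive B cells ran from -12.7 points (galactosyltransferases) to -15.6 points (Mgat), a range not tested between families beside standard deviations of up to 2.05 points. Taken within libraries of like background, plasma cells differed from naive B 1 by -10.5 to -14.5 points over the 5 families, and plasmablasts from naive B 2 and 3 by -8.14 to -10.5 points. Naive B 1 and the plasma cells form the set of low background and the other libraries that of high background. A fit with this set as a term compares plasma cells with naive B 1 alone, and plasmablasts with naive B 2 and 3. Its plasma cell differences and calls thus rest on 1 naive B library.

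**Figure D1:**
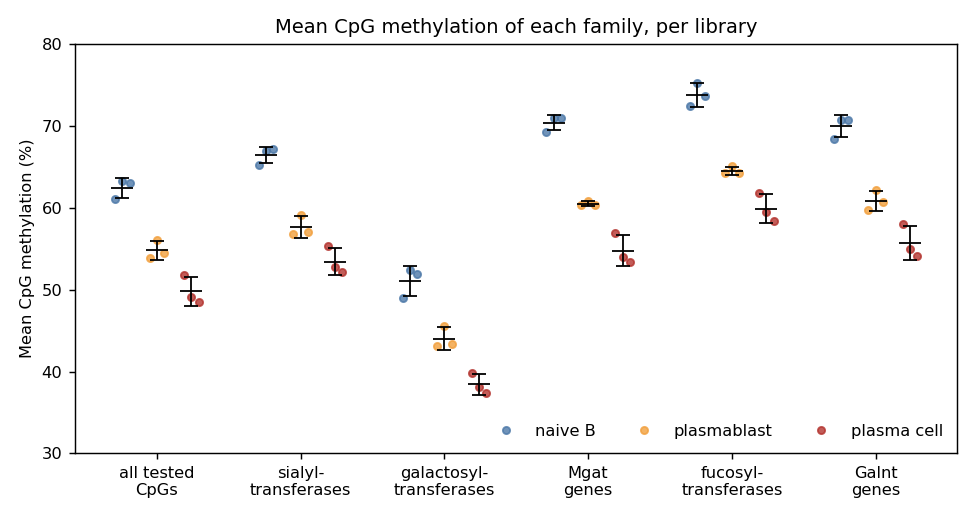
Mean CpG methylation (%, axis from 30 to 80) of all tested CpGs and of each of the 5 families; points are libraries and black bars the mean ± SD of 3 libraries in naive B cells (blue), plasmablasts (orange) and plasma cells (red). In each family the 3 groups do not overlap, and the galactosyltransferases sit lowest, at 51.1%, 44.0% and 38.4%.

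A CpG was called where the adjusted p of a quasi-binomial test over the whole table lay below 0.01 and the level moved by 20 points or more. In plasmablasts 201 member CpGs (13.1%) fell, where 10.5% of all tested CpGs did, and in plasma cells 377 (24.5%) fell, where 22.6% of all did. With the library set by background in the fit 211 fell in plasma cells, where 11.9% of all did. In plasma cells the called share was 27.3% for Galnt (114 CpGs), 26.7% for Mgat (48), 24.4% for galactosyltransferases (44), 22.9% for sialyltransferases (139) and 20.6% for fucosyltransferases (32). These shares lie near that of all tested CpGs. Only CpGs that start at 20% or more can fall by 20 points, and 964 members were at 80% or more in naive B cells. Of these 18.6% fell in plasmablasts (16.2% of all such CpGs) and 33.1% in plasma cells (33.2% of all such CpGs), so at a like starting level the members' shares lay close to those of all CpGs. Reads from the same MspI fragment cover neighbouring CpGs, so neighbours are not independent. In the authors' deposited table of differential CpGs 74 members (4.81%) were listed for plasmablasts, where 3.31% of all tested CpGs were. For plasma cells the authors' deposited table listed 279 members (18.1%), where it listed 15.3% of all, and 276 of the 279 were called here.

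The called share varied with distance from the start site. Within 1 kb of a start site 402 member CpGs averaged 14.4% ± 1.85 in naive B cells but 10.1% ± 0.468 in plasma cells, and 3.98% were called lower (4.52% of all such CpGs assigned to a gene). From 1 to 10 kb the 295 member CpGs averaged 75.1% ± 1.43 and 58.2% ± 2.33, and 31.5% were called lower, where 24.7% of all were. Beyond 50 kb the 398 member CpGs averaged 90.5% ± 0.839 and 72.7% ± 2.45, and 34.2% were called lower against 33% of all. By annotated class the share that fell in plasma cells was 37.6% for intergenic members (31.7% of all intergenic CpGs), 26.4% for introns (25.5% of all), 9.81% for exons (11.3%) and 7.79% for promoters (7.82%). Among galactosyltransferases 17 of 30 intergenic CpGs (56.7%) fell there, 11 of them at B4galt5.

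**Figure D2:**
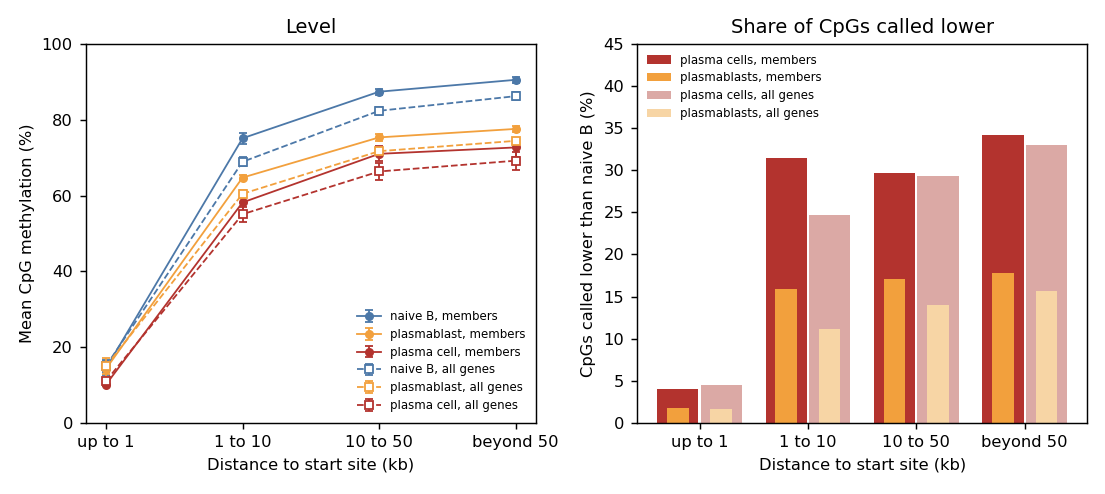
Left, mean CpG methylation (%) by distance from the start site for the member genes (filled points, solid lines) and for all CpGs assigned to a gene (open squares, dashed), with SD over 3 libraries; right, the share of CpGs called lower than in naive B cells (%). Levels are lowest up to 1 kb, where 3.98% of member CpGs fell in plasma cells, and highest beyond 50 kb, where 34.2% fell.

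Reads were also summed over the CpGs of each gene with at least 5 of them, here called a locus, and a locus counted as changed with an adjusted p below 0.01 and a shift of 5 points or more. Mgat4e and Fut1 had too few CpGs, which left 64 loci. In plasma cells 49 of 64 fell (76.6%), where 67.8% of all genes did, and in plasmablasts 23 of 64 (35.9%), where 26% of all did. None rose in either cell type, where 0.00703% of all genes did in plasmablasts and 0% in plasma cells, and none was higher at an unadjusted p under 0.05. The median locus difference was -17.3 points in plasma cells and -8.33 in plasmablasts, beside -15.7 and -7.42 over all genes. In 56 of 64 loci the 3 plasma cell libraries lay wholly below the 3 naive B libraries, as in 78.8% of all genes. The plasmablast count was 12 without naive B 2, 11 without naive B 3, 9, 11 and 13 without plasmablasts 1, 2 and 3, and 34 without naive B 1. Without naive B 2 or 3 or any 1 plasmablast library, 12.8% to 14.9% of all genes fell. Among loci named below, the plasmablast calls of St6galnac3, St3gal6, B3galt1, B4galt7, Mgat2, Mgat5, Galnt1 and Galnt14 were each lost in at least 4 of these 5 smaller sets, B4galt5 lost its call without plasmablasts 1 or 2, and Mgat5b without plasmablasts 1.

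**Figure D3:**
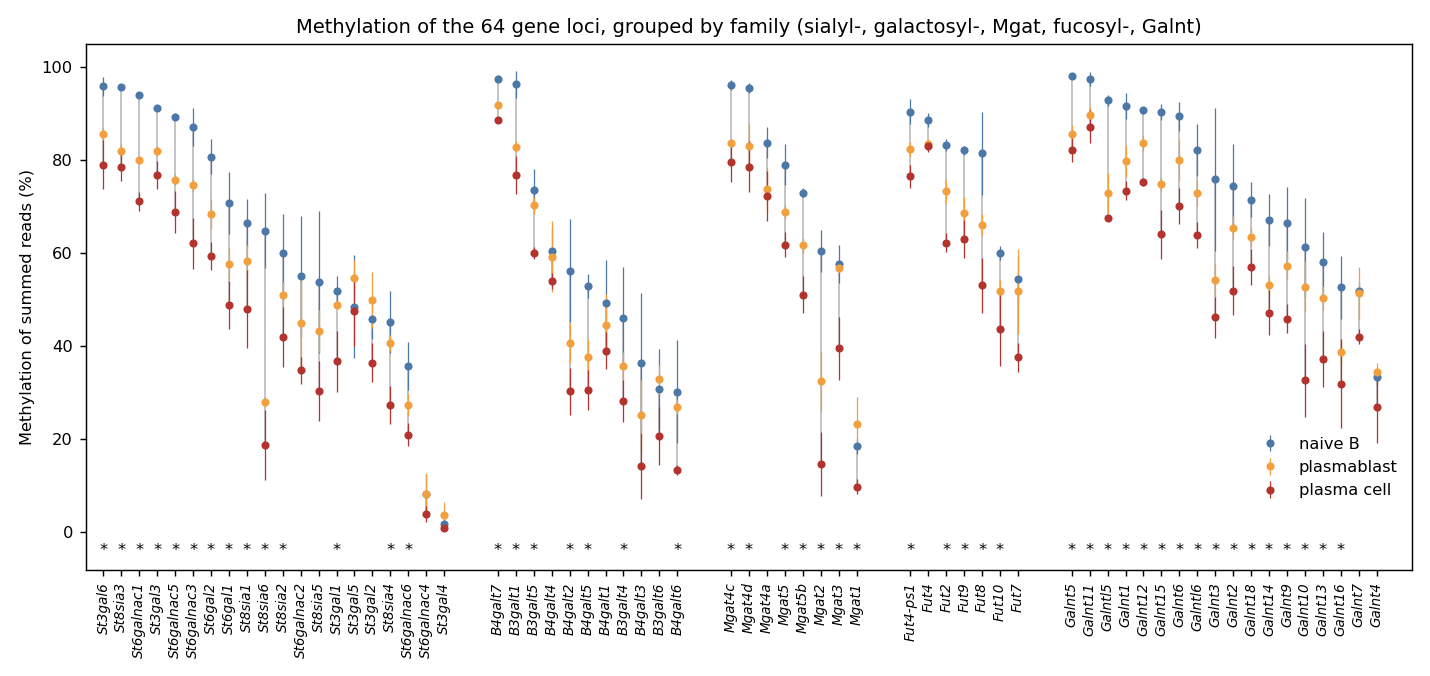
Methylation (%, reads summed over the CpGs of a gene) of the 64 loci, grouped by family and ordered within it by the naive B level; points are means and lines the SD of 3 libraries, and stars mark loci called lower in plasma cells than in naive B cells. Stars stand under 49 of the 64 loci, and the widest gaps are at St8sia6 and Mgat2.

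Of the 20 sialyltransferase loci 14 fell in plasma cells, and 8 did so in plasmablasts. St6gal1, whose product makes the sialylated glycans bound by CD22, had a locus level of 78.03%, 64.8% and 69.4% in naive B 1 to 3, 54.2%, 58.2% and 60.8% in plasmablasts and 54.3%, 48.7% and 43.8% in plasma cells over 16 CpGs. The fall in plasma cells passed (adjusted p = 0.000779), and the lower plasmablast level did not (adjusted p = 0.0249), except with unweighted means in limma (-18.1 points). Its loss was uneven along the gene. An intronic CpG on chromosome 16 at position 23300714 (mm9), 10123 bp inside the gene from the assigned start, fell from 97.2% ± 4.81 to 26.8% ± 12.6 in plasmablasts and 22.3% ± 11.2 in plasma cells, at 12 to 50 reads per library. The CpG 222 bp after the upstream start stood at 2.93%, 3.87% and 0.775%, and the CpG 7 bp before an internal start at 87.1%, 67.6% and 72.8%, with no call at either.

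St6galnac5 and St6galnac3, which sialylate GalNAc in gangliosides and related chains, were called lower as loci in both cell types. At St6galnac5 22 of 50 CpGs fell in plasma cells and the locus went from 89.4% ± 0.734 to 75.85% ± 1.11 and 68.9% ± 4.44 (adjusted p = 0.000025 for plasma cells). At St6galnac3 27 of 97 CpGs fell, the largest number in any member gene, and the locus went from 87.2% ± 4.08 to 74.6% ± 1.36 and 62.1% ± 5.52. St3gal3, which sialylates N-acetyllactosamine ends, went from 91.3% ± 0.739 to 82.0% ± 1.00 and 76.8% ± 3.01, with 12 of 59 CpGs lower in plasma cells. St3gal6, an enzyme that contributes to selectin ligands, fell from 95.9% ± 2.09 to 85.6% ± 1.47 and 79.0% ± 5.24. St3gal1, which caps the Gal-GalNAc core of O-glycans, stood at 51.9% ± 3.20, 48.9% ± 0.765 and 36.7% ± 6.52 and was called in plasma cells (adjusted p = 0.00108). It also holds the CpG with the largest fall of the family, in an intron on chromosome 15 at position 66984940 (mm9). That CpG read 96.9%, 96.3% and 78.1% in naive B 1 to 3, 45%, 25% and 6.25% in plasmablasts and 17.2%, 11.1% and 4% in plasma cells, at 16 to 32 reads.

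The polysialyltransferase genes St8sia2 and St8sia4 were called lower in plasma cells mainly through distant CpGs. St8sia4 went from 45.2% ± 6.73 to 27.4% ± 4.16 (a difference in pooled reads of -17.6 points) over CpGs as far as 373881 bp away, and with CpGs within 50 kb only the difference was -4.39 points and not called. St8sia2 went from 60.1% ± 8.29 to 42.0% ± 6.37, and within 50 kb by -3.90 points with no call. Its call was also lost without naive B 2 or 3 or plasma cells 2 or 3 (adjusted p from 0.0119 to 0.017) and with the library set in the fit (-8.72 points). Some of its distant CpGs lie in the neighbouring gene Slco3a1.

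St8sia6, which adds a further sialic acid to sialylated O-glycans, was chosen after its values were seen. Its 4 neighbouring CpGs at 552 to 745 bp after the start, in an exon and the following intron at chr2:13714401-13714594 (mm9), all fell in plasma cells, and 3 of them in plasmablasts. Their mean was 40.6%, 42.9% and 44.3% in naive B 1 to 3, 7.70%, 9.20% and 2.26% in plasmablasts, and 2.08%, 3.66% and 2.93% in plasma cells. The naive B libraries thus lay far above all 6 others, and the plasmablast values were already near those of plasma cells. With 4 CpGs within 1 kb the gene was not in the start site test. Over all 6 CpGs the locus went from 64.9% ± 7.98 to 28.0% ± 1.15 and 18.8% ± 7.46.

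Of the 11 galactosyltransferase loci 7 fell in plasma cells, and 3 did so in plasmablasts. B4galt5 carried 13 of the family's 24 CpGs lower in plasmablasts and 17 of its 44 lower in plasma cells, out of 42 tested. Its locus read 54.5%, 49.97% and 54.3% in naive B 1 to 3, 33.8%, 38.1% and 41.3% in plasmablasts and 35.6%, 27.6% and 28.6% in plasma cells, so that each LPS-induced library was below each naive B library. Upstream of the promoter stretch printed above, 3 CpGs at -990, -1017 and -1295 bp stood at 21.0%, 30.4% and 37.0% in naive B cells but at 0%, 0.641% and 0% in plasma cells, all called. Naive B 1, which has the low background of the plasma cells, read 18.9%, 40% and 28.6% there. In plasmablasts they stood at 2.82%, 1.52% and 12.2%, and the CpG at -1017 bp was called there. The naive B mean was thus higher farther from the start, though naive B 1 read less at -1295 than at -1017 bp. In plasma cells the level was at or near 0 at all 3. Farther off, 4 CpGs at chr2:167209627-167209657 fell together from 93.4% ± 1.59 to 67.2% ± 2.47 and 60.0% ± 9.40. The family's largest single fall was at position 167121938, 52739 bp after the start, from 86.1% ± 5.36 to 38.6% ± 4.01 and 19.0% ± 1.34.

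B4galt1, the main galactosyltransferase of N-glycans, stood at 49.2% ± 9.29, 44.6% ± 6.66 and 39.1% ± 3.89 and was not called (adjusted p = 0.0536 in plasma cells). It was called there with unweighted means in limma (-6.92 points, adjusted p = 0.00116). With the library set in the fit, and so against naive B 1 alone, the difference was -20.9 points and was called. B4galt2 fell in plasma cells, from 56.3% ± 11.02 to 30.3% ± 5.04 (adjusted p = 0.00146). Its calls were 3 intronic CpGs between 4977 and 5023 bp after the start, which stood at 83.1%, 77.8% and 83.6% in naive B cells, against 20.6%, 25.5% and 31.3% in plasma cells. B3galt5, which makes type I chains, went from 73.6% ± 4.53 to 60.0% ± 1.24, with 7 of 16 CpGs lower. B3galt1, a related enzyme, went from 96.3% ± 2.80 to 76.8% ± 4.08, and some of its CpGs lie in the neighbouring gene Stk39. B4galt7, which adds galactose to the linker of proteoglycans, had no called CpG among 11, yet its locus fell from 97.4% ± 0.807 to 91.8% ± 0.656 and 88.6% ± 0.241 with both falls called. With the library set in the fit the plasma cell calls of B4galt2 (-13.7 points, adjusted p = 0.0327) and B4galt7 (-8.53 points, adjusted p = 0.0108) were lost.

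Of the 8 Mgat loci 7 fell in plasma cells, and 5 did so in plasmablasts. Mgat2, the enzyme that starts the second antenna of complex N-glycans, had the largest locus fall of all members in plasma cells by pooled reads (-45.7 points, with -43.2 at St8sia6). It read 55.7%, 64.8% and 61.1% in naive B 1 to 3, 28.1%, 40% and 29.5% in plasmablasts and 22.5%, 10.6% and 10.9% in plasma cells. All of that difference came from 3 of its 6 CpGs. Those at 442, 466 and 478 bp after the start were at 3.70% or less in every group. The 3 at 1664, 1680 and 1883 bp stood at 93.3%, 89.3% and 95.5% in naive B cells, then 59.3%, 46.0% and 73.1% in plasmablasts, then 28.7%, 15.7% and 48.2% in plasma cells. They lie on chromosome 12 at positions 70286848, 70286864 and 70287067 (mm9), in the Mgat2 exon, the last of them in its 3′ untranslated region and the others in that of the overlapping gene Dnaaf2. All 6 carry a promoter annotation, which came before exon in the classes used here, and they fall in the promoter window of the neighbouring ribosomal protein gene Rpl36al. That window reaches 500 bp past a start, so the 3 CpGs at 1664 to 1883 bp lie outside that of Mgat2. The 3 at 442 to 478 bp are within 500 bp of its start.

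**Figure D4:**
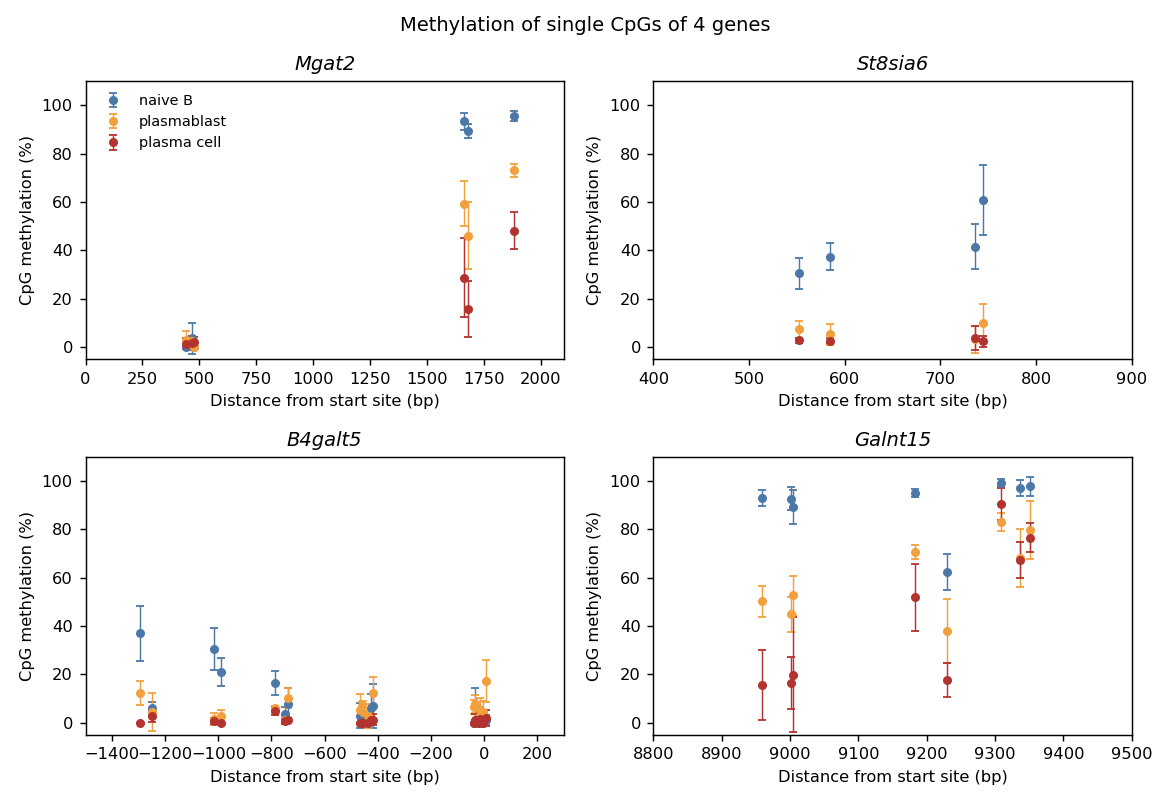
Methylation (%) of single CpGs against distance from the assigned start site (bp) at Mgat2, St8sia6, the B4galt5 promoter and a Galnt15 intron; points are means and bars the SD of 3 libraries. The Mgat2 CpGs at 1664 and 1680 bp step down from 93.3% and 89.3% through plasmablasts to plasma cells, and the St8sia6 CpGs are near 0 in both LPS-induced cell types.

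Mgat1, which opens the way from high-mannose to complex N-glycans, had locus levels of 18.6% ± 1.81, 23.3% ± 5.70 and 9.86% ± 1.56. Of its 13 CpGs 9 lay within 1 kb of the start (2.21% ± 1.51 in naive B cells), 2 stood at 80% or more in naive B cells, and 3 were called lower in plasma cells. The locus was called in plasma cells (adjusted p = 0.00699). This call was lost without any of naive B 1, 2 or 3, plasmablast 2, or plasma cells 2 or 3, at differences of -8.01 to -9.76 points against -9.09. Mgat3, which adds the bisecting GlcNAc, stood at 57.7% ± 4.08, 56.9% ± 0.814 and 39.6% ± 6.79. Its 3 plasmablast libraries lay within the naive B range, and the plasma cell level was called lower (adjusted p = 0.000906), though not at a coverage of 20 (-10.45 points, adjusted p = 0.0178). Mgat5, which starts the branch that carries long lactosamine chains, went from 79.0% ± 4.39 to 68.9% ± 1.43 and 61.9% ± 2.72, and with CpGs within 50 kb only the plasma cell difference was -13.1 points (adjusted p = 0.0103). An intronic CpG on chromosome 1 at position 129276692 (mm9), 73477 bp from the start, fell the most in the family, from 95.1% ± 4.34 to 40.7% ± 13.9 and 18.9% ± 3.40. Mgat5b, an enzyme of O-mannosyl glycans, had 22 of 50 CpGs lower in plasma cells, and its locus went from 73.1% ± 1.05 to 61.7% ± 1.70 and 51.1% ± 3.96.

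Of the 7 fucosyltransferase loci 5 fell in plasma cells, and 1, Fut9, did so in plasmablasts. Fut8, the enzyme of core fucose on N-glycans of antibody and other proteins, read 71.2%, 87.7% and 85.5% in naive B 1 to 3, 64.8%, 64.9% and 68.9% in plasmablasts and 59.8%, 48.4% and 51.4% in plasma cells. Naive B 1 stood apart from the other naive B libraries but above all others. The fall was called in plasma cells (adjusted p = 0.000455) and not in plasmablasts (-14.6 points, adjusted p = 0.0268). The plasmablast locus was called without naive B 1 (-20.5 points), with the library set in the fit (-20.4), at a coverage of 20 (-20.5), with unweighted means in limma (-12.9) and with CpGs within 50 kb (-11.6). Its largest fall was at an intergenic CpG on chromosome 12 at position 78280404 (mm9), at -58707 bp, from 98.6% ± 2.41 to 42.8% ± 4.91 and 26.0% ± 14.0. Fut9, a Lewis x enzyme, went from 82.2% ± 0.975 to 68.7% ± 3.51 and 63.0% ± 4.08, but within 50 kb of its start the plasma cell difference was -3.49 points and the plasmablast difference 2.14 points, with neither called. With promoter, exon and intron CpGs only they were -14.1 and -8.91 points (adjusted p = 0.012 and 0.174). Fut10, a less studied member, went from 60.0% ± 1.54 to 43.7% ± 7.81, and Fut2, which makes H antigen in secretions, from 83.3% ± 1.35 to 62.3% ± 2.09. Fut7, which makes sialyl Lewis x for selectin ligands, stood at 54.4% ± 5.07, 51.8% ± 9.16 and 37.6% ± 3.05 over 5 CpGs and was not called (adjusted p = 0.0261).

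Fut4, another Lewis x enzyme, kept a high level in all 3 groups. It had 14 CpGs, more than any other member gene without a called CpG, and read 88.7% ± 1.45, 83.5% ± 1.12 and 83.0% ± 1.22, with no locus call. It was called in plasma cells at a coverage of 5 (-9.45 points) and with unweighted means in limma (-6.44 points). Fut1, the other H antigen gene, was chosen after its values were seen, since both of its CpGs fell in both cell types. They lie in its promoter, at -562 and -526 bp, a stretch that is also annotated as promoter of Fgf21. On chromosome 7 at position 52872413 (mm9) the level was 83.3%, 80% and 94.3% in naive B 1 to 3, 52.8%, 77.1% and 52.2% in plasmablasts and 36.5%, 42.6% and 26.8% in plasma cells, at 30 to 78 reads.

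Of the 18 Galnt loci 16 fell in plasma cells, and 6 did so in plasmablasts. Galnt15 had 16 of 28 CpGs lower in plasma cells, and its locus went from 90.4% ± 1.71 to 74.8% ± 1.52 and 64.1% ± 5.25. An intronic run of 5 neighbouring CpGs at chr14:32851249-32851520 (mm9), from 8959 bp after the start, fell together. Its mean was 88.1%, 87.4% and 83.8% in naive B 1 to 3, 47.3%, 56.0% and 50.6% in plasmablasts and 39.9%, 19.6% and 13.4% in plasma cells. The groups did not overlap, and plasma cells 1 lay between the plasmablasts and the other plasma cell libraries. Galntl6, Galnt2 and Galnt14 had 12, 12 and 11 CpGs lower in plasma cells. Galnt2, a widely expressed member, went from 74.5% ± 8.95 to 52.0% ± 5.21 (not called with the library set in the fit, at -12.2 points, or with CpGs within 50 kb, at -16.8), Galntl6 from 82.2% ± 5.66 to 63.9% ± 2.82 and Galnt14 from 67.2% ± 5.65 to 47.3% ± 4.76. Galnt1, which acts on many substrates, went from 91.6% ± 2.83 to 79.8% ± 3.28 and 73.5% ± 2.03, with both falls called.

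Galnt3, whose product glycosylates the hormone FGF23, read 58.3%, 86.2% and 83.3% in naive B 1 to 3, 56.1%, 56.7% and 50.0% in plasmablasts and 50.7%, 41.9% and 46.1% in plasma cells. Naive B 1 was close to the plasmablasts. The call in plasma cells (adjusted p = 0.00329) was lost without naive B 2 (adjusted p = 0.0107), naive B 3, plasma cells 2 or plasma cells 3. With the library set by background entered in the fit, plasma cells were compared with naive B 1 alone. The difference there was -12.04 points, against -30.1 in pooled reads, and was not called.

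Within 1000 bp of the start 32 member genes had at least 5 CpGs, and none fell in plasmablasts (0.717% of all genes did), with 0 also at an unadjusted p under 0.05. In plasma cells 2 of 32 fell, Galnt6 and B4galt5, where 10.3% of all genes did. Between plasmablasts and plasma cells none fell, where 0.562% of all genes did, with 17 of 32 lower at an unadjusted p under 0.05, as were 4174 of all 7117. Most of these starts were nearly free of methylation in naive B cells (median 4.16%) and so could not fall by the 5 points required. B4galt5 read 3.44%, 8.96% and 6.41% in naive B 1 to 3, 4.89%, 8.04% and 4.95% in plasmablasts and 1.26%, 1.03% and 0.992% in plasma cells over 17 CpGs, the one at -990 bp among them (adjusted p = 0.0015). The library backgrounds given above ran from 0.749% to 6.11%, and their part in this difference was not tested. The call was lost without naive B 2 (-3.70 points, adjusted p = 0.0397), without plasma cells 3 (adjusted p = 0.0188) and with the library set in the fit (-2.35 points, adjusted p = 0.278). It was also lost at a coverage of 5 (-4.64 points) and with unweighted means in limma (-4.26 points, adjusted p = 0.0798). Galnt6, an initiating enzyme of O-glycans, read 75.3%, 80.4% and 83.4%, then 77.2%, 77.5% and 60.3%, then 63.98%, 59.5% and 60.5% over 9 CpGs near its annotated starts (adjusted p = 0.00395). This call was lost without naive B 2 or 3 or plasma cells 2 or 3 (adjusted p from 0.0176 to 0.0243), at differences of -15.7 to -16.6 points against -17.1. It was also lost with the library set in the fit (-13.9 points, adjusted p = 0.0471). The same held at a coverage of 5 (-20.4 points, adjusted p = 0.0174) and of 20 (-10.1 points, adjusted p = 0.0601). Fut4 had the highest start level, at 84.3% ± 3.24, 79.8% ± 0.766 and 78.7% ± 1.07, and was not called, and St3gal3 came next after Galnt6, at 44.9% ± 10.4, 40.4% ± 4.08 and 30.5% ± 4.001.

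**Figure D5:**
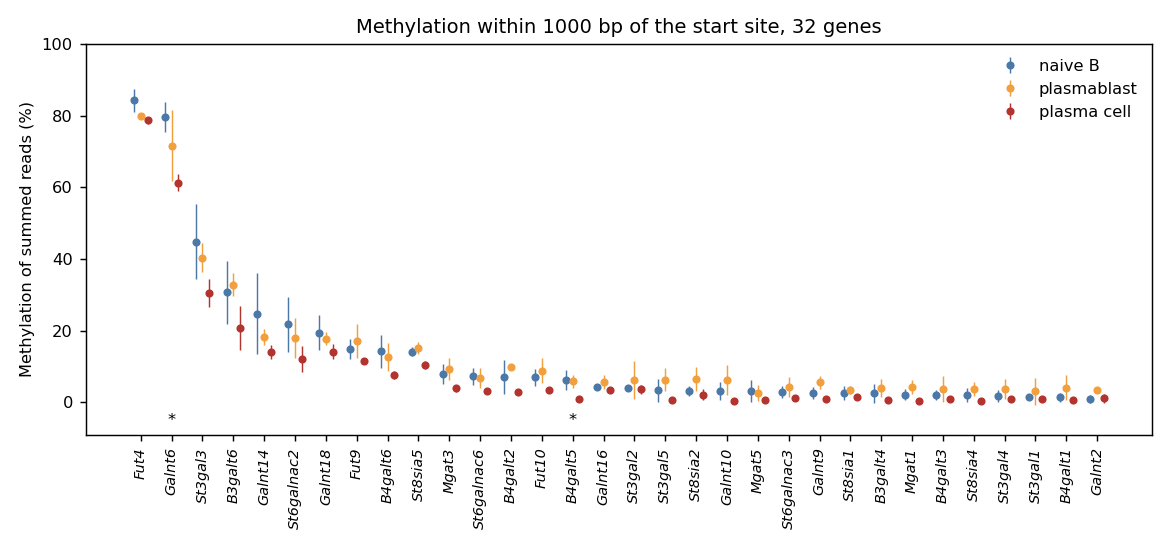
Methylation (%, reads summed over CpGs within 1000 bp of the start) of the 32 member genes with at least 5 such CpGs, ordered by the naive B level; points are means and lines the SD of 3 libraries, and stars mark the genes called lower in plasma cells. Fut4 and Galnt6 stand near 80% in naive B cells, while the median is 4.16%.

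Only 3 member CpGs rose in plasma cells (0.0443% of all tested CpGs did) and 1 of them in plasmablasts (0.0631% of all). A pair on chromosome 10 at positions 98634788 and 98634798 (mm9) is assigned to Galnt4, 64018 and 64028 bp after its start, and lies in an intron of the neighbouring gene Poc1b. The CpG at 98634798 read 0%, 9.62% and 7.90% in naive B 1 to 3, 22.2%, 23.3% and 46.2% in plasmablasts and 30.8%, 28.1% and 35.9% in plasma cells, at 12 to 52 reads, with all 6 LPS-induced libraries above naive B. Its neighbour went from 4.96% ± 4.82 to 19.6% ± 9.67 and 31.5% ± 5.11 and passed in plasma cells only, and the difference between those cell types was not called (adjusted p = 0.391). With the library set in the fit, plasma cells were compared with naive B 1 alone, which read 0% at both CpGs at 12 reads. Neither was called there, at differences of library levels of 31.5 and 31.6 points. In pooled reads over all naive B libraries the differences were 24.1 and 24.1 points. Galnt4 itself had no lower CpG among 16, and its locus stood at 33.3% ± 1.72, 34.5% ± 1.97 and 26.9% ± 7.63, called in plasma cells only without plasma cells 1 (-10.4 points). At St3gal1 an intergenic CpG at position 66907359, 100928 bp after the start, rose from 10% ± 10.0 to 37.2% ± 12.4 in plasma cells. In pooled reads the rise was 20.6 points (adjusted p = 0.00563). Naive B 1 to 3 read 20%, 0% and 10% there, at 65, 13 and 10 reads. That call was lost without naive B 2 or 3 or without plasma cells 1 or 2 (adjusted p from 0.0132 to 0.037). It was also lost with the library set in the fit (17.2 points, adjusted p = 0.082) and in limma on log ratios (adjusted p = 0.0134).

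Between plasmablasts and plasma cells 11 member CpGs of 9 genes fell further (0.714%, where 0.578% of all tested CpGs did), none rose (0.000842% of all did), and no locus fell or rose (0% of all genes), with 31 of 64 loci lower at an unadjusted p under 0.05, as were 7313 of all 14220. Without plasma cells 1 the locus count was 15, where 20.9% of all genes were called, and with unweighted CpG means in limma it was 6, where 10.2% of all were. The largest of these falls was in a St6galnac3 intron on chromosome 3 at position 153316425 (mm9). It read 95.9%, 86.7% and 100% in naive B 1 to 3, 88.9%, 90% and 87.5% in plasmablasts and 52.4%, 26.1% and 28.6% in plasma cells, so plasmablasts lay within the naive B range and plasma cells below it. A Mgat5b intronic CpG on chromosome 11 at position 116801472 was at 21.8% ± 18.4 and 34.3% ± 11.4 and then at 0% in all 3 plasma cell libraries, at 13 to 33 reads. St3gal3 at position 117806733, in an intron on chromosome 4, went from 64.1% ± 7.39 and 55.5% ± 6.76 to 23.0% ± 10.0. The 11 also included the Mgat2 CpGs at 1664 and 1680 bp and 2 CpGs of Fut8. The count of 11 was 1 without plasma cells 3 (0.134% of all tested CpGs) and 3 to 5 without plasmablasts 1 or 2 or plasma cells 2 (0.125% to 0.458%). Limma on log ratios called none (0% of all), nor did a fit with the library set (0.00253% of all). All plasmablast libraries are of high background and all plasma cell libraries of low background. The last fit can thus part group from set only through the naive B libraries, and cannot decide on the 11 calls. There the St6galnac3 CpG kept -55.7 points (adjusted p = 0.981).

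In plasma cells other genes of glycan synthesis were called at a share near that of all genes. Of 132 genes in 5 lists outside the families, 101 had a tested locus. Of these 101, 64 (63.4%) fell in plasma cells, beside 67.8% of all genes. In plasmablasts 18 of the 101 fell, a lower share than the 26% of all genes. None was higher in either. In plasma cells 11 of 18 genes of oligosaccharyltransferase and glycan precursor synthesis, 8 of 13 trimming glycosidases, 15 of 26 genes of sugar nucleotide synthesis and transport, 23 of 34 other O-glycan, lactosamine and Notch transferases and 7 of 10 sialidases and sialic acid readers fell. Gne, Cmah and Cd22 were picked as examples outside the rule that named member genes, and do not stand for the lists. Gne, the entry enzyme of sialic acid synthesis, went from 81.1% ± 3.11 to 72.5% ± 0.622 and 58.1% ± 8.83. Cmah, which converts sialic acid to its glycolyl form, went from 71.4% ± 6.45 to 65.2% ± 5.56 and 48.4% ± 5.35 (called in plasma cells, adjusted p = 0.000727). Cd22 itself fell from 86.0% ± 5.46 to 63.4% ± 5.49 in plasma cells.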

How the data were processed

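The 9 bisulfite libraries were grouped by the labels. Bismark and Bowtie2 were used with mouse build mm9, per the submitters' processing notes, which give no version here. The authors deposited counts of methylated and unmethylated reads per CpG, summed over both strands per the file headers, and the level as a fraction (methylated over all reads). They also gave the nearest start site and annotations of promoter, exon and intron, where a promoter reaches 2500 bp up and 500 bp down from a start. Each CpG was classed here in the order promoter, exon and intron, and otherwise as intergenic. Blank counts were taken as 0.

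CpGs with 10 or more reads in all 9 libraries were fitted in R 4.3.3 (data.table, version 1.17.8) by logistic quasi-binomial regression with a level for each group. Dispersion was moderated with limma 3.58.1 over all features and kept at 1 or above (median 1.27 for CpGs). After this moderation a CpG's own spread hardly enters its p. F tests were adjusted by Benjamini-Hochberg over all features of a kind. Loci and start sites were fitted on summed reads. The code was tested on simulated data. Printed levels are means of libraries, and tested differences are of pooled reads. The exceptions are fits with the library set or replicate block and the unweighted means in limma, where differences are of library levels.

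No label ties libraries to animals, so p-values measure only the spread between libraries, possibly technical. Replicates correlated at 0.956 to 0.986 and shared identical counts at up to 1.29% of CpGs. Lacking molecular identifiers, reads may repeat a molecule.

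Members and lists were chosen with earlier results of these data known. Genes were named by rule: the top 4 of each family by number of CpGs lower in plasma cells, those with a higher CpG or a called start, the 2 with most CpGs and no call, and 13 always named (St6gal1, St3gal1, St3gal6, St8sia4, B4galt1, Mgat1, Mgat2, Mgat3, Mgat5, Fut8, Fut7, Galnt1, Galnt3). Alternatives covered coverage, the minimum difference, libraries left out, replicate number, library set by background, limma tests and the CpGs used.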

Additional observations from a re-analysis of the deposited data

How the results depend on the processing

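No family mean changed sign under any alternative run, and with 1 library left out the differences from naive B cells ran from -9.55 to -8.36 points in plasmablasts and -13.98 to -12.43 in plasma cells for sialyltransferases, -8.14 to -6.40 and -13.72 to -11.98 for galactosyltransferases, -10.5 to -9.64 and -16.7 to -14.95 for Mgat, -9.93 to -8.50 and -14.8 to -13.1 for fucosyltransferases, and -9.88 to -8.56 and -15.45 to -13.5 for Galnt. A coverage minimum of 5 gave -8.30 (Mgat) and -7.13 (fucosyltransferases) in plasmablasts and -13.2 (Mgat) in plasma cells; a minimum of 20 gave -11.0 (Mgat, plasmablasts) and -15.4 (sialyltransferases, plasma cells). Subtracting the library background gave -11.4 (Mgat, plasmablasts), and a mean over genes -10.9 and -16.5 (fucosyltransferases).

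With a minimum difference of 10 points 375 CpGs fell in plasmablasts and 588 in plasma cells, where 19.8% and 35.3% of all tested CpGs did. In plasmablasts 3 rose, where 0.213% of all did. At a coverage of 20, with 482 member CpGs tested, 76 and 136 fell, where 11.7% and 24.8% of all did. None rose in either (0 and 0), where 0.0811% and 0.0529% of all did. In plasma cells 31 of 37 loci fell, where 71.1% of all genes did, and 0 of 9 start sites, where 11.5% of all did. At 5, 3 of 2443 member CpGs rose in plasmablasts, where 0.0647% of all did. With the library set by background in the fit 211 CpGs fell and 0 rose in plasma cells, where 11.9% and 0.0309% of all did. Between plasmablasts and plasma cells 0 fell, where 0.00253% of all did, and library set there follows group. In each comparison with naive B cells 1 of 32 start sites fell, where 2.92% of all did in plasmablasts and 4.41% in plasma cells. Limma on log ratios called 0 CpGs between the LPS-induced groups, where it called 0% of all. With unweighted means in limma 44 loci fell in plasmablasts and 6 between the LPS-induced groups, where 56.2% and 10.2% of all genes did. Promoter, exon and intron CpGs only gave 11 of 57 loci in plasmablasts, where 16.2% of all genes fell. CpGs within 50 kb gave 14 of 59, where 19.1% of all genes fell. A window of 2000 bp gave 1 and 6 of 34 start sites, where 1.76% and 17.6% of all fell. The cause of these shifts was not tested where it is not named.

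With 1 library left out, CpGs that fell numbered 170 to 207 in plasmablasts, 323 to 389 in plasma cells and 1 to 14 between them, and CpGs that rose 0 to 2 and 2 to 3. Loci that fell numbered 9 to 34, 38 to 51 and 0 to 15, and start sites 0 to 1 and 0 to 6. The shares of all features moved as well. Where 9 loci fell in plasmablasts 13.3% of all genes did. Where 15 fell between the LPS-induced groups 20.9% of all did, and where 6 start sites fell 19.1% of all did.

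Same-numbered libraries did not deviate together (correlations of -0.0287 to 0.0302, with -0.0368 to 0.0419 for libraries of unlike number). Values near 0 cannot decide whether the numbers pair libraries, and the labels do not say. With the replicate block 12 loci fell in plasmablasts, where 14.2% of all genes did, and 2 CpGs rose there, where 0.0533% of all did. No other count of calls moved by over 1.5 times.

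Of the named loci, starts and CpGs, 1025 of 1204 alternative values kept direction and call, 131 lost the call, 36 gained it and 12 changed sign, all in plasmablast loci, of which only Fut9 had a call. With CpGs within 50 kb these were St8sia2 at 1.72, Fut9 at 2.14 and Galnt4 at -1.37 points. The others were Mgat3 at 1.07 (coverage 20), 1.296 (library set) and 1.67 (without naive B 1, the lowest without a library being -3.24), St3gal1 at 5.92 (coverage 20), B4galt1 at 0.724 (library set) and 0.386 (without naive B 1, the lowest being -8.61), Mgat1 at -0.724 (unweighted means), and Fut7 at 0.522 (coverage 5) and 1.45 (without plasmablasts 2).

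Single CpGs rest on 10 or more reads per library, so small differences at 1 CpG were not detectable at this depth.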
